A study of Mus musculus with 6 samples.

Results

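The complement genes described here are 5 components of the cascade, C3, C4b, Cfb, C1s1 and C1ra, and 4 of its regulators, Serping1, Cd55, Cd59a and Cd46. They were picked by name from a table of 41819 mouse genes, with the result for C3 already known, and make up 9 of them. The RNA came from a single clone of 3T3 mouse fibroblasts that carried a lentiviral cassette, in which a doxycycline-inducible TetOne promoter drives human PARG (hPARG) together with the fluorescent protein mClover3, and which also holds a puromycin resistance gene for selection. PARG degrades poly(ADP-ribose), and the comparison asked which transcripts change when more of it is made. In 3 dishes, called control here, the cells were not induced, and in the 3 dishes called hPARG they received 500 ng/ml doxycycline for 72 h. All 6 dishes were kept in puromycin. No dish without the cassette was given doxycycline among these libraries, so effects of doxycycline and of hPARG cannot be told apart in them. The paper also describes quantitative PCR of selected genes in cells without the construct that were given doxycycline, which was not used here. The labels speak of wells of a plate where the methods speak of dishes, and nothing shows that the dishes came from separate passages, so the p-values measure only the spread between these dishes.

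Complement is a set of blood and tissue proteins that tag and destroy microbes and damaged cells. In the classical pathway the protease C1s, bound to C1q together with the protease C1r, cuts C4 and C2. In the alternative pathway factor B joins C3b. Both routes form enzymes that cut C3, the protein on which all pathways converge. Most circulating complement comes from the liver, but fibroblasts also make several components, and host cells protect themselves with the secreted C1 inhibitor and with membrane proteins such as CD46, CD55 and CD59.

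The sequence just ahead of C3 is shown because C3 was the member with the largest difference, and that ahead of C1s1 because it is a component of similar level in control dishes that did not pass the test. C3 (ENSMUSG00000024164) lies on the minus strand of chromosome 17 at 57203970 to 57228136, and C1s1 (ENSMUSG00000038521) on the minus strand of chromosome 6 at 124530345 to 124542359, both in GRCm38. Each line gives the 250 bases upstream of the RefSeq start, read 5′ to 3′ on the strand of the gene from GRCm38.p6, chr17:57228137-57228386 for C3 and chr6:124542360-124542609 for C1s1, the outer of 2 starts listed. Capitals mark matches to TTNNGNAA, a loose pattern for C/EBP factors.
C3: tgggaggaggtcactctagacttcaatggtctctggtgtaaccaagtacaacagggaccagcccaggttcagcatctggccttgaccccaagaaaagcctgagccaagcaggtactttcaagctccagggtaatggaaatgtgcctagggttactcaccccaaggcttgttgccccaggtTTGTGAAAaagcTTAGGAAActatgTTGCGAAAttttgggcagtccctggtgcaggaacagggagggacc
C1s1: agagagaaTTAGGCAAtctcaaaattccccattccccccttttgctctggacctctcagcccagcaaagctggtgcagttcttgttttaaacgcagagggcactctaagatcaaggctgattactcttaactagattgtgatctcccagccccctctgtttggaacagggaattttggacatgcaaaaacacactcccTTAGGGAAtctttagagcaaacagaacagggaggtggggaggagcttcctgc
The C3 window held 3 matches, at bases -70 to -63, -58 to -51 and -45 to -38 from the start, within a stretch of 33 bases. The C1s1 window held 2, at -242 to -235 and -52 to -45. The window of the inner C1s1 start, not shown, held 1, at -90 to -83. At least 1 match was present in 36.8% of 32817 RefSeq mouse windows of the same length, and at least 3 in 2.61%, with both strands searched. The cut of 3 is the number found in the C3 window, so the 2.61% is a description and not a test. Also searched were TTCNNNGAA for STAT (in 7.0% of windows), TGANTCA for AP-1 (6.8%), the interferon-stimulated response element by its consensus (3.0%), TATAAA for the TATA box (12.4%), GGGCGG for the GC box (32.7%) and the kappa B consensus (3.9%). Neither window shown held any of these. RefSeq windows were matched for 6 of the 9 genes, namely C3, C1ra, C1s1, Cd55, Cd59a and Cd46. The C1ra window held 2 C/EBP matches, that of Cd55 2 GC boxes and that of Cd59a 1 interferon-stimulated response element, whereas no pattern was found in the window of Cd46. The C1ra window, chr6:124512371-124512620, reaches past the start of C1ra in the GENCODE annotation, 124512405, and both matches lie beyond that start. A match is a run of letters and not a measured binding site.

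Between 21619908 and 25263818 reads were counted per dish, with medians of 22512587 in control and 22482282 in hPARG dishes. The dishes numbered 2 stood apart from the others in both groups on the first principal component, which held 42% of the variance, at 21.6 for control and 24.7 for hPARG against -27.4 to -3.17 for the other 4. Of 10 fibroblast markers, 8 had more than 3 counts in every dish, and their list summed to 6117 to 7848 CPM in control and 7084 to 8956 CPM in hPARG dishes, whereas Dcn had at most 15 counts in any dish and Lum at most 4. Of 9 macrophage markers, 3 had more than 3 counts in every dish, namely Lyz2, Cd68 and Itgam. Lyz2 averaged 6.48 CPM in control and 6.20 CPM in hPARG dishes, and Cd68 0.835 and 0.723 CPM. Adgre1 had no counts, and C1qa, C1qb and C1qc had at most 2 in any dish. The macrophage list summed to 5.33 to 9.25 CPM in control and 5.40 to 8.99 CPM in hPARG dishes. Hepatocyte markers summed to 2.93 to 6.93 CPM and 1.48 to 6.10 CPM in the respective groups, and epithelial markers to 0.585 to 1.04 CPM and 0.596 to 0.963 CPM. The 4 endothelial markers were the list whose sums did not overlap between groups. These sums were 0.896 to 1.37 CPM in control and 0.742 to 0.871 CPM in hPARG dishes. Within the list, Cdh5 averaged 0.389 CPM in control and 0.177 CPM in hPARG dishes, and Kdr 0.507 and 0.532 CPM. Pecam1 and Tek had 3 counts or fewer in every dish. Apoa1, of the hepatocyte list, was also lower in every hPARG dish, with 18, 10 and 45 counts in control and 8, 7 and 3 in hPARG dishes. The 8 tested fibroblast markers had a median log2 difference of 0.34 (hPARG minus control), with only Pdgfra lower, at -0.40. No marker of any list was called by the rule given below. Among all tested genes, 6.00% were lower in hPARG dishes without overlap. Mouse Parg was at 51.3 ± 4.63 CPM (SD, n = 3) in control and 52.7 ± 4.31 CPM in hPARG dishes, and the human cassette is not a gene of the table, so its induction was not measured here.

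Only 4 of the 9 genes were expressed strongly enough to be tested, namely C3, C1ra, C1s1 and Cd46. Cd55 had 0 counts in every dish, and C4b, Cfb, Serping1 and Cd59a stayed at 11 counts or fewer. Genes were compared with edgeR and called when the false discovery rate (FDR) over all tested genes was under 0.05 and the difference exceeded 2-fold. By that rule 1 of the 4, C3, was called lower in hPARG dishes and none was called higher, and of all 11509 tested genes 0.0782% were called lower and 0.00869% higher. Because the choice of genes rested on this comparison, the count describes them and does not stand as separate evidence.

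**Figure D1:**
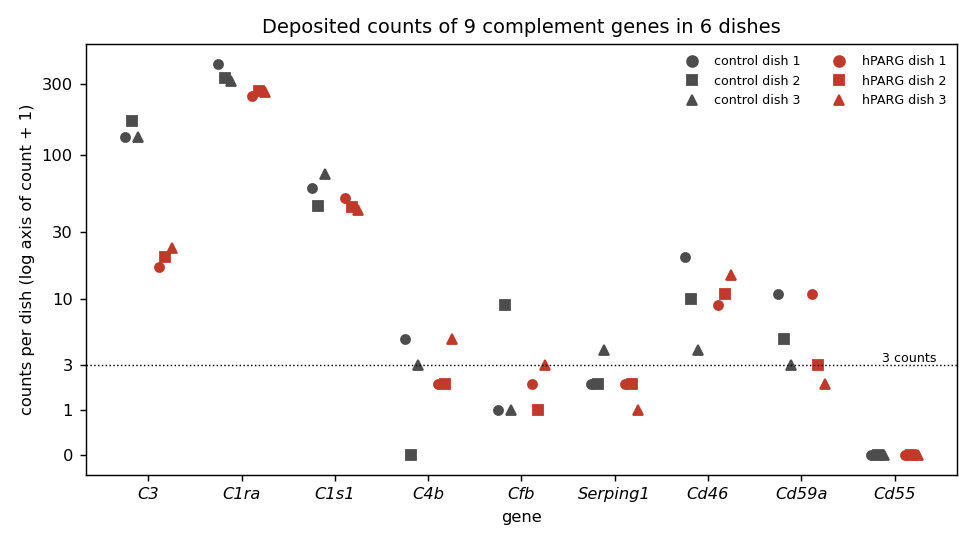
Deposited counts (log axis of count + 1) of the 9 complement genes in each of 3 control dishes (grey) and 3 hPARG dishes (red), with marker shape giving the dish number and a dotted line at 3 counts. Only C3 shows a wide gap between the groups, and most of the 9 lie near the line.

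C3 encodes the central component, whose cleavage releases C3a and deposits C3b. It had 132, 168 and 132 counts in control dishes 1 to 3 and 17, 20 and 23 counts in hPARG dishes 1 to 3. Every hPARG dish was far below every control dish, and within each group the counts lay close together. In CPM, counts scaled to a common library total with the TMM factors for composition, the levels were 5.15, 7.23 and 6.22 in control and 0.779, 0.824 and 1.06 in hPARG dishes. The fitted difference was -2.80 on the log2 scale (SE 0.226, edgeR FDR 0.00602), a 6.96-fold lower level. C3 ranked 4 among the 11509 tested genes by p-value. The call did not hold without hPARG dish 1, where the difference was -2.72 and the edgeR FDR 0.0754, the highest of 15 alternatives whose FDR ranged down from it to 1.96e-23. With both dishes numbered 2 left out, the difference was -2.62 (edgeR FDR 0.00139). The summed endothelial markers, at most 1.37 CPM in any dish, were also lower in hPARG dishes. Kdr, the only one of them tested as a gene, differed by 0.03 (edgeR FDR 0.999). The part of these markers in the C3 result was not tested. In RNA from whole dishes, fewer cells that express a gene and less RNA per cell cannot be told apart.

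C1ra and C1s1 encode the proteases of the C1 complex, and both lie on chromosome 6 beside their closely related copies C1rb and C1s2. C1ra (ENSMUSG00000055172, 124512405 to 124523443, plus strand) had the most counts of the 9 genes. Its levels were 16.0, 14.2 and 14.8 CPM in control dishes and 11.3, 11.0 and 12.1 CPM in hPARG dishes. All 3 hPARG dishes were below all 3 control dishes, by a margin that was small beside that of C3. The difference was -0.38 (SE 0.107, 95% interval -0.68 to -0.09 with 4 residual degrees of freedom), and C1ra did not pass the test over all genes (edgeR FDR 0.808). C3 and C1ra were the 2 members whose groups did not overlap, and among all tested genes 6.00% were lower in hPARG dishes without overlap.

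For C1s1, which cuts C4 and C2, levels were 2.34, 1.94 and 3.49 CPM in control dishes and 2.34, 1.81 and 1.93 CPM in hPARG dishes. The groups overlapped, and control dish 3 stood above the other 5. The difference of -0.35 (SE 0.271, 95% interval -1.10 to 0.40) did not pass the test (edgeR FDR 0.999), and it was -0.08 without control dish 3. An antisense gene with 0 counts, Gm16567, overlaps 18.41% of the C1s1 exon bases.

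The copies C1rb and C1s2 have few reads, and reads that fit both copies can be split between them by the counting. C1s2 had 12, 6 and 6 counts in control and 1, 1 and 0 in hPARG dishes, and C1rb had 14, 9 and 18 against 19, 23 and 9. The C1s2 counts were lower in every hPARG dish, whereas those of C1rb overlapped. C1s2 was under the filter. Its depth-adjusted ratio of summed counts was 0.0860 (exact 95% interval 0.00986 to 0.347, counting error only), and without a filter the difference of -3.30 (SE 0.888) had an edgeR FDR of 0.700. Adding each copy to its partner gave differences of -0.51 (SE 0.255, edgeR FDR 0.999) for C1s1 with C1s2 and -0.35 (SE 0.104, edgeR FDR 0.882) for C1ra with C1rb. Neither sum passed the test.

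**Figure D2:**
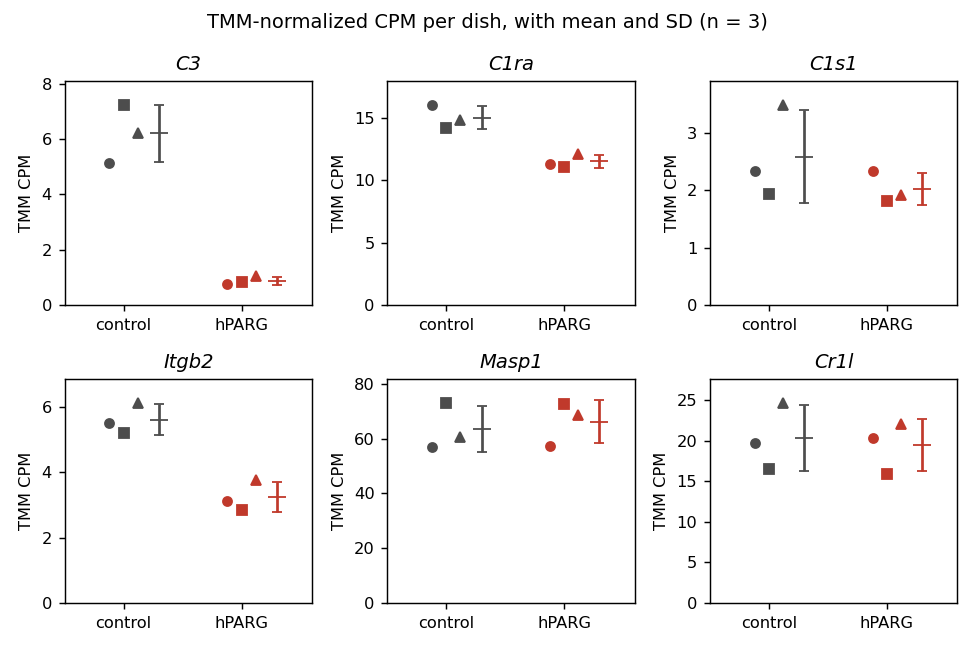
TMM-normalized CPM of C3, C1ra, C1s1, Itgb2, Masp1 and Cr1l in each dish (points, shape as dish number), with the group mean and SD (n = 3, bars) on axes that start at 0. The groups are apart for C3, C1ra and Itgb2 and overlap for C1s1, Masp1 and Cr1l.

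The other components were at the edge of detection. C4b (ENSMUSG00000073418, chromosome 17, 34728380 to 34743882), the source of C4b deposited by C1s, had 5, 0 and 3 counts in control and 2, 2 and 5 in hPARG dishes. Cfb (ENSMUSG00000090231, chromosome 17, 34856374 to 34862518), the protease of the alternative pathway, had 1, 9 and 1 counts in control and 2, 1 and 3 in hPARG dishes. The 9 counts of Cfb in control dish 2 were the only ones over 3, and both genes overlapped between the groups. The hPARG to control ratio of summed counts, adjusted for depth, was 1.16 for C4b (exact 95% interval 0.398 to 3.46) and 0.563 for Cfb (0.171 to 1.66). Ratios within those intervals are compatible with the counts, and the intervals cover counting error only. C4a, the copy of C4b, had 0 counts and C2, the neighbour of Cfb, at most 1. Gm20547, which shares 79.5% of the Cfb exon bases on the same strand, also had 0.

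Among the regulators, Cd46 (ENSMUSG00000016493, chromosome 1, 195036826 to 195092249), a cofactor for cleavage of C3b and C4b, was the only one tested. It had 20, 10 and 4 counts in control and 9, 11 and 15 in hPARG dishes. These groups overlapped fully, with the spread among control dishes wider than the gap between means. The difference was 0.11 (SE 0.524, edgeR FDR 0.999), and its sign changed among the alternatives, from -0.24 to 0.72.

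Serping1 (ENSMUSG00000023224, chromosome 2, 84765387 to 84775444), the C1 inhibitor that inactivates C1r and C1s, had 2, 2 and 4 counts in control and 2, 2 and 1 in hPARG dishes. Cd59a (ENSMUSG00000032679, chromosome 2, 104095801 to 104115354), which blocks the membrane attack complex, had 11, 5 and 3 counts in control and 11, 3 and 2 in hPARG dishes. Both overlapped, and dish 1 was the highest for Cd59a in each group. The depth-adjusted ratios were 0.645 for Serping1 (exact 95% interval 0.166 to 2.24) and 0.869 for Cd59a (0.418 to 1.79). Cd55 (ENSMUSG00000026399, chromosome 1, 130439027 to 130462744), which speeds the decay of the C3-cutting enzymes, had 0 counts in all 6 dishes, a result that allows up to 3 counts per dish, or 0.119 to 0.139 CPM. The copies Cd55b and Cd59b were at 0 as well.

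Levels can be set side by side between genes only per length, in the deposited RPKM. C1ra was the highest of the 9 in control dishes at 4.67 ± 0.302 RPKM (SD, n = 3). C3 followed at 0.936, 1.35 and 1.08 RPKM and C1s1 at 0.731, 0.620 and 1.04 RPKM, with ranges that overlapped. In hPARG dishes C1ra was at 3.50 ± 0.0783 RPKM, C1s1 at 0.712, 0.564 and 0.569 RPKM and C3 at 0.138, 0.149 and 0.181 RPKM. C3 thus lay above C1s1 in each control dish, narrowly in dish 3 and with group ranges that overlapped, and below C1s1 in each hPARG dish, with ranges that did not. Of the summed RPKM of the 9 genes, C3 made up 13.2% to 19.6% in control and 2.93% to 3.96% in hPARG dishes, and C1ra 65.4% to 70.6% and 73.5% to 79.1%. The 5 components summed to 6.60 to 6.72 RPKM in control and 4.19 to 4.42 RPKM in hPARG dishes. Most of each sum came from C1ra, which did not pass the test over all genes (edgeR FDR 0.808), so the sums do not describe the components as a class. The 4 regulators, of which only Cd46 was tested, summed to 0.180 to 0.372 RPKM and 0.160 to 0.354 RPKM, ranges that overlapped.

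**Figure D3:**
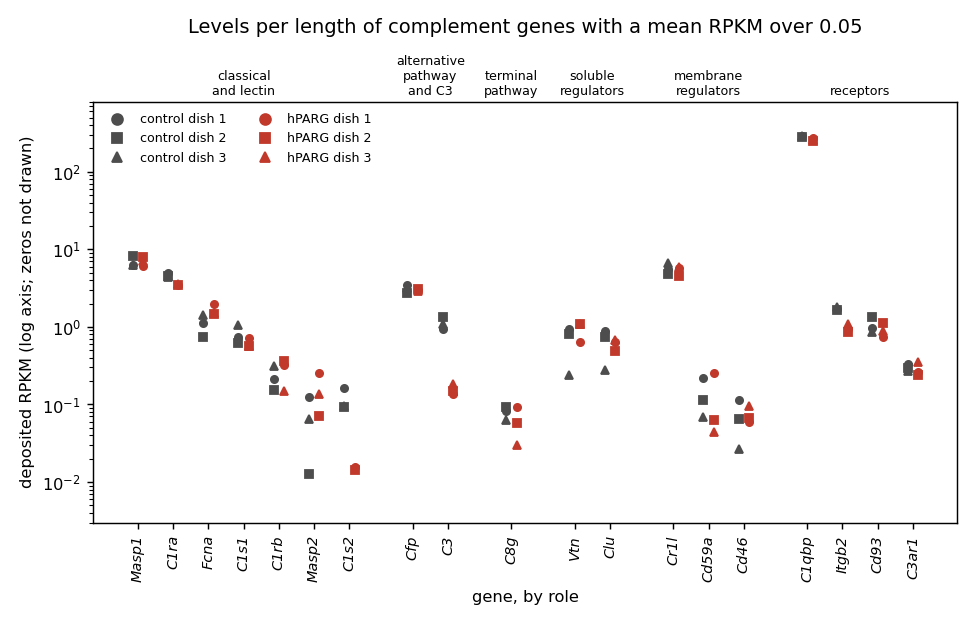
Deposited RPKM (log axis, zeros not drawn) of the complement genes with a mean over 0.05 RPKM, grouped by role, in control (grey) and hPARG (red) dishes, with marker shape as dish number. C1qbp lies far above the rest, and C3 and C1s2 are the genes with the widest gaps between the groups.

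A list of 48 further complement genes, written from general knowledge of the cascade and not from how they moved, was used to describe the rest of the system. Of these, 10 had no read in any dish and 11 could be tested. None of the 11 was called by edgeR, by DESeq2 or by the likelihood ratio test, which called 10, 22 and 30 genes in all. By edgeR 0.0782% of all tested genes were called lower and 0.00869% higher, so no call among 11 says little about them. Of the 11, 1, Itgb2, had an unadjusted edgeR p under 0.05, against 3.95% of all tested genes. The median difference of the 11 was -0.03, with 7 of 11 below 0, beside a median of 0.0038 over all 11509 genes. The 4 tested members had a median of -0.37, which lies between the values of C1ra and C1s1. None of the 7 terminal pathway genes, which build the membrane attack complex, could be tested.

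**Figure D4:**
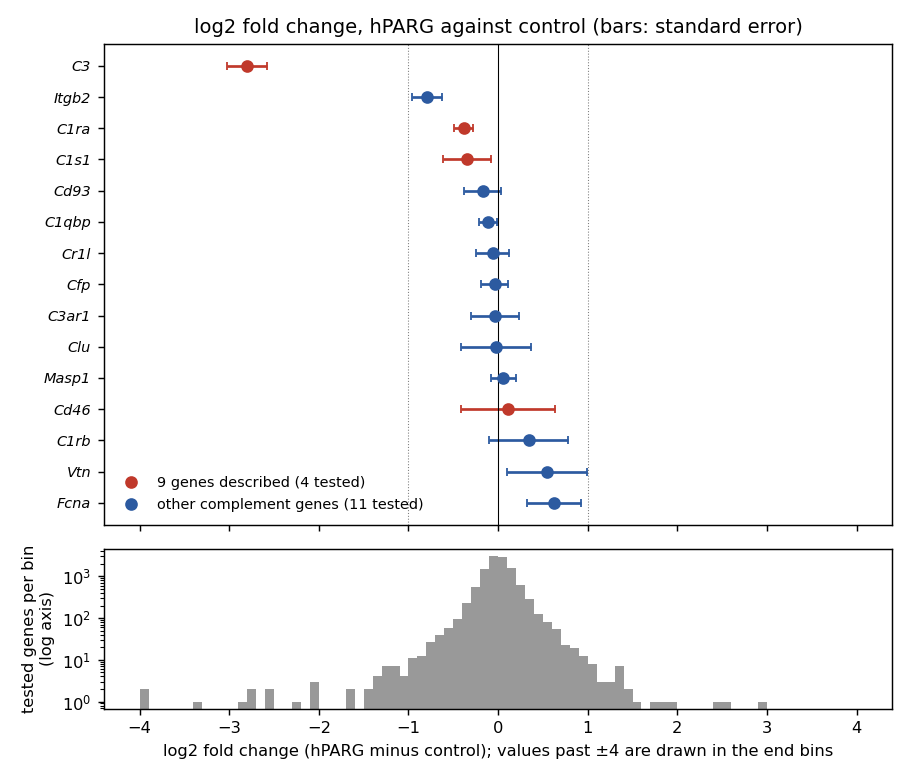
Top, log2 difference (hPARG minus control) with standard error for the 4 tested members (red) and the 11 other tested complement genes (blue), with dotted lines at 2-fold. Bottom, the same difference for all 11509 tested genes as a histogram with a log count axis. C3 lies at -2.80, outside the dotted lines, and the other 14 lie between them.

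The other genes in this list with the highest RPKM came from several steps of the cascade. Masp1, a protease of the lectin pathway, was at 63.5 ± 8.47 CPM (SD, n = 3) in control and 66.2 ± 7.97 CPM in hPARG dishes, a difference of 0.06. Cfp encodes properdin, which stabilizes the alternative pathway enzyme, and was at 5.56 ± 0.758 and 5.42 ± 0.0292 CPM (difference -0.04). Cr1l encodes Crry, the rodent membrane regulator that acts on C3b and C4b as CD46 and CD55 do, and was at 20.3 ± 4.10 and 19.4 ± 3.18 CPM (difference -0.06). At 5.75 RPKM in control dishes Cr1l was the membrane regulator with the highest level. None of these passed the test (edgeR FDR 0.999 for each).

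C1qbp, a mainly mitochondrial protein named for its binding to C1q, was at 364 ± 15.1 CPM in control and 336 ± 19.3 CPM in hPARG dishes (difference -0.11, edgeR FDR 0.999). Fcna, the pattern recognition protein ficolin-A, had a difference of 0.63 and Cd93, a receptor once assigned to C1q, one of -0.17. Neither passed the test, and their groups overlapped. Vtn, which encodes vitronectin, an inhibitor of the terminal pathway, had a difference of 0.55 that did not pass the test either.

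Itgb2 (ENSMUSG00000000290, chromosome 10, 77530252 to 77565708) encodes the beta chain of the leukocyte integrins, among them the receptors for inactivated C3b. Its levels were 5.50, 5.20 and 6.13 CPM in control and 3.12, 2.84 and 3.76 CPM in hPARG dishes. The groups did not overlap, and the difference was -0.79 (SE 0.169), within 2-fold and not past the test (edgeR FDR 0.436). Over 15 alternatives its FDR ran from 0.00985 with the likelihood ratio test of edgeR to 1.00, and the difference from -0.91 to -0.70, within 2-fold in each. Itgam, which encodes an alpha chain pairing with it, had 7, 4 and 6 counts in control and 4, 5 and 8 in hPARG dishes. The leukocyte gene Ptprc had at most 5 counts in any dish. By contrast, the macrophage markers Lyz2 and Cd68 had at least 101 and 11 counts respectively in every dish.

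The genes most like C3 over the 6 dishes were sought among all tested genes, by the root mean square difference between log2 CPM profiles after the mean of each gene was subtracted. The 5 closest were Cxcl5 (0.189), Cxcl1 (0.265), Ccl20 (0.294), Cbr2 (0.322) and Hp (0.406). Cxcl5, Cxcl1 and Ccl20 encode secreted chemokines, Hp the acute-phase protein haptoglobin and Cbr2 a carbonyl reductase. Their differences were -2.55, -2.80, -3.30, -2.51 and -2.78 respectively, beside -2.80 for C3. The correlation with C3 over 6 dishes was between 0.954 and 0.995, a description only, since the points form 2 groups and the genes share the libraries. This measure depends largely on the size of the difference between groups. C1ra and C1s1, with differences of -0.38 and -0.35, were therefore not among the 5, which adds nothing to those values.

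**Figure D5:**
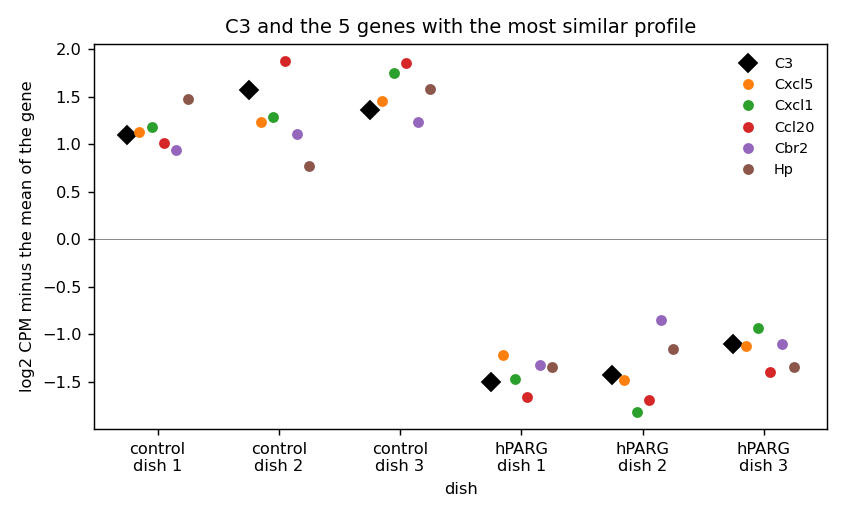
Log2 CPM minus the mean of each gene (vertical axis) in each of the 6 dishes for C3 (black diamonds) and the 5 genes with the most similar profile (coloured points). All 6 genes lie above 0 in the 3 control dishes and below 0 in the 3 hPARG dishes.

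RefSeq windows were matched for Cxcl1, Ccl20 and Cbr2 of these 5. The kappa B consensus was found in those of Cxcl1 and Ccl20, shown here because the C3 window held none. Each stretch has 30 bases, with the match in capitals, where on Cxcl1 matches on both strands overlap.
Cxcl1: ctgtactccGGGAATTTCCCtggcccggag
Ccl20: aatcaatgggGGAAAACCCCgggtgagaac
The matches lay at bases -71 to -61 from the Cxcl1 start and -80 to -71 from the Ccl20 start. Neither window held a C/EBP match, and no searched pattern was found in that of Cbr2.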

How the data were processed

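Poly(A) RNA of 6 dishes was sequenced as paired-end reads. The authors trimmed adapters, mapped reads to GRCm38 with Ensembl release 96 in CLC Genomics Workbench 12.0 (up to 10 hits per read) and deposited counts per gene without normalization. Whether strand was used is not given in the sources used here. The authors also deposited RPKM, counts per length and per a library total that is not stated. The columns of their own comparison (fold changes and p-values) were not used.

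Counts were filtered with filterByExpr (minimum count 10), scaled by TMM and tested with the quasi-likelihood functions of edgeR 4.0.16 (glmQLFit, glmQLFTest), with limma 3.58.1 under R 4.3.3, for control against hPARG without a block. FDR is Benjamini-Hochberg over 11509 genes, and the standard error is the absolute log2 difference over the square root of F. Intervals on count ratios are exact binomial. At 3 counts or fewer a gene was taken as at the floor. The fit was tested on simulated data. Alternatives were DESeq2 1.42.0, other scalings and filters, the likelihood ratio test, a replicate block, a length spline and dishes left out. An exact permutation test of 3 against 3 dishes cannot give a p under 0.1.

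The members and lists were chosen with earlier results of these data known. Named are the members, their copies or neighbours, the 8 other complement genes with the highest mean RPKM, the 5 genes most like C3 and Parg. Itgam, Ptprc, Masp2, C3 neighbours, cell type markers named singly and genes named in a count were added after their values were seen. Positions are from GENCODE M21, promoter windows from RefSeq (GRCm38.p6), and protein sequences were not used here.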

Additional observations from a re-analysis of the deposited data

How the results depend on the processing

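Precision was limited by 3 dishes per group and by low counts, since 5 of the 9 genes could not be tested. The number of genes called, 10 among all tested, was 22 with DESeq2, 16 without a filter, 30 with the likelihood ratio test, 23 with the replicate block, 20 with the length spline, 19 without both dishes numbered 2, and from 3 (without hPARG dish 1) to 13 as single dishes were left out, with 5 without hPARG dish 3. The cause was not tested. The number of members called was 1 and fell to 0 without hPARG dish 1, where C3 was at -2.72 (edgeR FDR 0.0754), and C3 ranged from -2.94 to -2.67 as single dishes were left out. C3 was called in the other 14 alternatives. C1ra ranged from -0.42 to -0.33 over its 15 alternatives, with an FDR between 0.0532 and 1.00, and C1s1 from -0.52 to -0.08. No further complement gene was called under any of the 15 alternatives, which called 3 to 30 genes in all. The same replicate number was not taken as a pairing, because the study names none. Deviations of same-numbered dishes correlated at 0.0963, 0.61 and 0.168. Among dishes of unlike number, the correlation was 0.335 for control dish 3 with hPARG dish 1 and 0.207 for control dish 1 with hPARG dish 3. The remaining unlike pairs ran from -0.441 to -0.23. With the replicate block C3 was at -2.80 (edgeR FDR 3.88e-05), and the FDR was 0.0282 for Itgb2 and 0.0532 for C1ra. That block left 330 genes at an edgeR FDR under 0.05, against 10 in the main fit. The common coefficient of variation between dishes was 0.0615 with it and 0.148 without. Deviations from the group mean correlated by rank with gene length at 0.601 (control) and 0.59 (hPARG) in the dishes numbered 2. In the other dishes these correlations ran from -0.58 to -0.282.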

Other observations

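Within 250000 bases on either side of C3 on chromosome 17, 25 genes were in the table and 9 besides C3 passed the filter. Their differences between hPARG and control dishes ran from -0.21 for Alkbh7 to 0.23 for Tubb4a, and the groups overlapped for each of the 9 (edgeR FDR 0.999 for each). The nearest tested gene on either side, Gpr108 and Tnfsf9, was at 24.4 ± 1.56 and 14.2 ± 1.93 CPM (SD, n = 3) respectively in control and at 22.9 ± 1.65 and 14.8 ± 1.49 CPM in hPARG dishes.

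Masp2, the lectin pathway protease that cuts C4 and C2, was under the filter, with 11, 1 and 5 counts in control and 20, 6 and 11 in hPARG dishes. The groups overlapped, and the depth-adjusted ratio of summed counts was 2.25 (exact 95% interval 1.23 to 4.26, counting error only, which leaves out the spread between dishes). Without a filter its difference was 1.19 (SE 0.730, edgeR FDR 0.998).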
